A study of Mus musculus with 2 samples.

Results

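Mir335, Mir675, Mir483, Mir296 and Mir298 are 5 microRNA genes that lie in or beside imprinted genes, and they were followed here in mouse hindbrain at embryonic day 13.5. Mir335 belongs to the Mest locus, Mir675 to H19, Mir483 to Igf2, and Mir296 and Mir298 to the Gnas/Nespas locus. They were taken by gene name, through their Ensembl identifiers in the GENCODE mouse annotation, and are 5 of the 1973 microRNA gene rows counted. Levels are given as CPM, that is, reads counted on the annotated strand of a gene per 1000000 such reads over all gene rows of its library. The RNA came from healthy B6NCrl embryos of pooled sex. Molecules under 30 nt were sequenced in 2 libraries, which form 1 group and are called replicate 2 and replicate 1 after their biological replicate numbers. The libraries carry separate biosample identifiers and the same donor identifier, and no source used here says whether separate litters were dissected, so the spread between them may be technical in part. No other tissue, stage or genotype was included.

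At an imprinted gene 1 parental copy is silenced by marks set in the germ line, so that RNA is made mostly from the other copy. A microRNA cut from the transcript of such a gene is known to follow the parental origin of that transcript. Mest, H19 and Igf2 are best known from embryonic and placental growth: Mest and Igf2 are expressed from the paternal copy and H19 from the maternal one. Nespas, an antisense transcript of the Gnas locus, is paternally expressed, and Mir296 and Mir298 have been assigned to that transcription unit in the mouse. The counts analysed here carry no information on the parental copy.

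The mature sequences are shown because a microRNA recognises its targets mainly through the seed, bases 2 to 8 from its 5′ end, which is in capitals. They are from RefSeq on GRCm38.p6, where all 5 hairpins were found, and each line reads 5′ to 3′.
mmu-miR-335-5p: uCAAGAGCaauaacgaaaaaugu
mmu-miR-335-3p: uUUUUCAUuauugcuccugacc
mmu-miR-675-5p: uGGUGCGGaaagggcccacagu
mmu-miR-675-3p: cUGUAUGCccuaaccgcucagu
mmu-miR-483-5p: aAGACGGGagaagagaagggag
mmu-miR-483-3p: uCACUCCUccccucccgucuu
mmu-miR-296-5p: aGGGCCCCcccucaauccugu
mmu-miR-296-3p: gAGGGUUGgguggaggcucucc
mmu-miR-298-5p: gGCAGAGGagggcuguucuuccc
mmu-miR-298-3p: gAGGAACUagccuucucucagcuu
The counts are per hairpin, so reads from the 5p and 3p arms of a gene were added together and the arms cannot be told apart. None of the 10 seeds was also the seed of a mature microRNA from another hairpin among the 1738 mature sequences in the table, so no family of shared seed links the 5 genes to each other or to other microRNAs listed there. Over bases 2 to 7 alone, 4 of the 10 matched 1 other mature microRNA each. For 3 of these the gene had a row, with 2 counts or fewer for Mir6986, 5 or fewer for Mir3110 and 1 or fewer for Mir5621 in either library.

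The base composition of the arms differed widely. miR-335-5p had a G+C content of 30.4% and miR-335-3p one of 36.4%, below the other 8 arms, which held from 50% (miR-298-3p) to 68.2% (miR-296-3p). The arms of Mir483 were the most uneven in purines, with 95.5% in miR-483-5p and 9.52% in miR-483-3p. The hairpin of Mir335 is shown because its reads made up most of the counts described below. The mature arms are in capitals, and the hairpin lies at chr6:30741299-30741396 on the plus strand of GRCm38.
Mir335 hairpin: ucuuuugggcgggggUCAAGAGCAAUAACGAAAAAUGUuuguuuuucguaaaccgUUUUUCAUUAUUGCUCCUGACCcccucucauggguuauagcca

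Each hairpin was placed on the GENCODE M21 annotation of GRCm38, the assembly that mm10 denotes. Mir335 (ENSMUSG00000065501.1) lay in an intron of Mest in 7 of the 11 annotated Mest transcripts and outside the remaining 4. In the principal Mest transcript it was in intron 2 of a 12-exon transcript, which is 1316 nt long, with the hairpin 474 nt after the upstream exon and 744 nt before the downstream one. Mir675 (ENSMUSG00000076275.1, chr7:142577064-142577147, minus strand) lay inside an exon of H19, a long non-coding RNA gene, in 3 of 7 transcripts, for example in exon 1 of a 5-exon transcript. In 1 further transcript the same bases were intronic, and they lay outside the remaining 3. Mir483 (ENSMUSG00000070140.1, chr7:142654924-142654996, minus strand) lay in an intron of Igf2 in 7 of 9 transcripts, 2500 nt after the start of a principal Igf2 transcript, and 77776 nt separated it from Mir675. Mir296 (ENSMUSG00000065521.1, chr2:174267047-174267125) and Mir298 (ENSMUSG00000065410.1, chr2:174267504-174267585) lay on the minus strand with 378 nt between them. In this annotation both were intergenic: Mir298 began 13651 nt beyond the annotated end of Nespas and 16734 nt from Gnas.

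**Figure D1:**
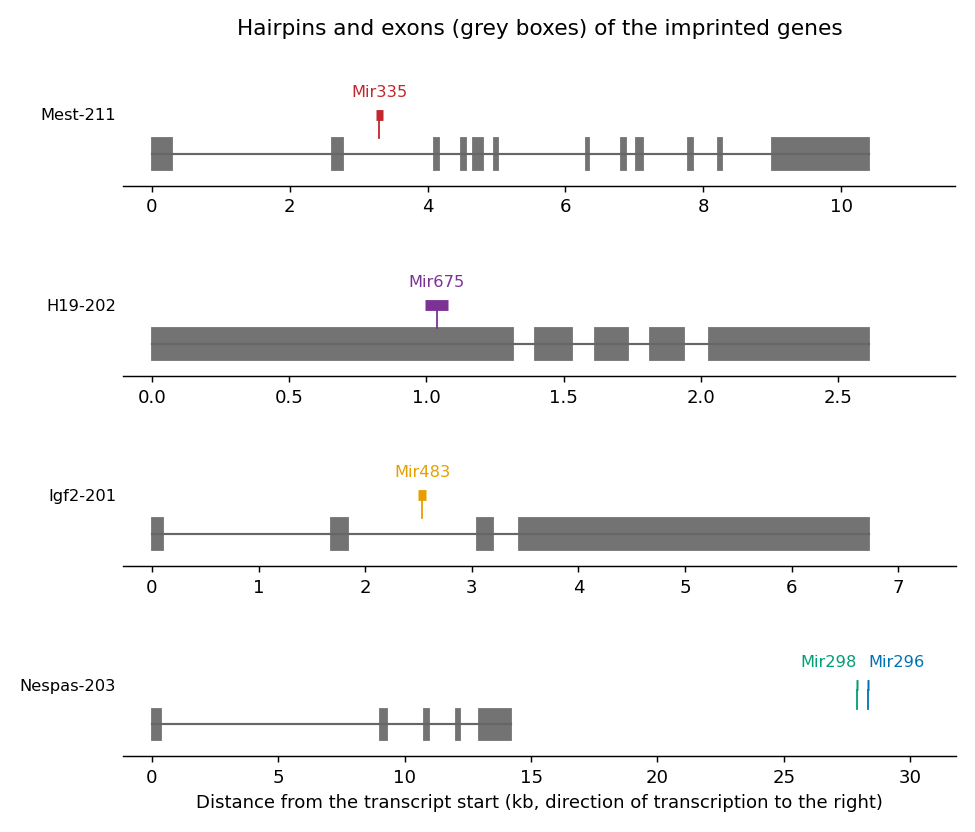
Position of the 5 hairpins (coloured bars) relative to the exons (grey boxes) of 1 transcript of each imprinted gene, by distance from the transcript start in kb, each row on its own scale. Mir335 and Mir483 are drawn in introns, Mir675 in exon 1 of an H19 transcript, and Mir298 and Mir296 beyond the annotated end of Nespas.

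The hairpins share no stretch of 20 nt with each other or with any other hairpin among the 1894 gene rows named in the annotation (0 of 79 stretches for Mir335, 0 of 65 for Mir675, 0 of 54 for Mir483, 0 of 60 for Mir296 and 0 of 63 for Mir298). Hairpins without a named row were not compared. Reads that mapped to several places, 34.5% of those in replicate 2 and 33.9% in replicate 1, are in no gene row. In length they ran from 73 nt for Mir483 to 98 nt for Mir335, against a median of 84 nt over the detected genes. Detected here means at least 10 counts in both libraries, which 356 genes reached. The G+C content of the hairpin was 42.9% for Mir335 and from 53.7% to 63.3% for the other members, against a median of 50.2% over detected genes. Folded with RNAfold, the Mir675 hairpin had a predicted free energy of -56 kcal/mol, or -0.67 kcal/mol per nt, lower than that of 98.9% of the detected hairpins. Mir335 folded at -44.3 kcal/mol, or -0.45 per nt, near the median of -0.43 per nt.

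All 5 members were detected, against 18% of all gene rows, and they spanned more than 3 orders of magnitude. Together they held 49746 CPM in replicate 2, against 52458 CPM in replicate 1, with a mean of 51102 ± 1918 CPM (SD, n = 2), or 5.11% ± 0.192 of the counts. Mir335 made up 87.0% of the members' counts in replicate 2 (exact binomial 95% interval 86.9 to 87.2) and 88.5% in replicate 1 (88.4 to 88.7). The median of their mean CPM was 2401, against 166 over the detected genes and 0 over all gene rows. All intervals cover counting error only.

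Mir335 had 195138 counts in replicate 2 and 139653 in replicate 1. Its level was 43285 CPM in replicate 2 (exact Poisson 95% interval 43093 to 43477) and 46449 CPM in replicate 1 (46206 to 46694), and these intervals did not overlap. It had a mean of 44867 ± 2238 CPM (SD, n = 2). Its coefficient of variation of 4.99% was the smallest of the members. By mean CPM it was the fourth most abundant gene row, below Mir99a, Mir10a and Mir100 and above Mirlet7g. That rank is among reads assigned to a gene row. Reads that mapped to several places are in none, so genes with repeated hairpins may be undercounted. The difference of 8148 CPM to Mir100 was larger than the SD of either gene, whereas the difference to Mirlet7g (-3383 CPM, Mirlet7g minus Mir335) was within the SD of Mirlet7g (5795 CPM). In replicate 2 alone Mirlet7g, of the let-7 family known to accumulate as cells differentiate, was the higher of the pair, at 45581 CPM, and Mir335 ranked 5. A read of a microRNA covers the whole molecule, so CPM was not divided by length. Per nt of annotated hairpin Mir335, which has a long hairpin, ranked 6, and the members kept their order, at 458 CPM per nt for Mir335, 46.6 for Mir296, 29.3 for Mir298, 1.87 for Mir483 and 0.143 for Mir675.

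Mir335 is also an intronic microRNA of a protein-coding gene, a class in which host and microRNA can share a primary transcript. The class was set here by position alone, and shared transcription was not tested. Of 658 gene rows in introns of protein-coding genes on the same strand, 138 were detected. Rows that overlapped an exon of any annotated transcript of their host were left out of this class, and the share given next depends on that. Among reads assigned to a gene row, Mir335 had the highest mean CPM of all 658 and held 13.7% of their summed mean CPM. Next came Mirlet7g in Wdr82 at 41484 ± 5795 CPM and Mir10b of the HoxD cluster at 37089 ± 4311 CPM (SD, n = 2 each). The order of Mir335 and Mirlet7g is not separated by their spread. The median of the detected genes of this class was 128 CPM, and Mir483, intronic in Igf2, ranked 68 among the 658. Mir483 also lay in an intron of Gm49394, a protein-coding gene on the same strand, and was entered in the class under that host.

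Mir296 and Mir298, the pair at the Gnas/Nespas locus, were the next most abundant members. Mir296, which has been studied in angiogenesis, had 4101 CPM in replicate 2 (95% interval 4042 to 4161) and 3269 CPM in replicate 1 (3205 to 3334), a mean of 3685 ± 588 CPM (SD, n = 2) and rank 49. Mir298 had 2204 CPM in replicate 2 (2161 to 2248) and 2598 CPM in replicate 1 (2541 to 2657), a mean of 2401 ± 279 CPM and rank 67. Mir296 was therefore higher in replicate 2 and Mir298 higher in replicate 1, with counting intervals that did not overlap for either gene. The neighbours in level were Mir139 at 3710 ± 281 CPM and Mir125a at 3672 ± 93.8 CPM for Mir296, and Mir615 at 2420 ± 519 CPM and Mir15a at 2333 ± 64.3 CPM for Mir298, none of them apart from the member by more than the larger SD of the pair compared.

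Mir483 and Mir675, from the neighbouring Igf2 and H19 genes, were far lower. Mir483 had 662 counts and 147 CPM in replicate 2 (136 to 158), and 381 counts and 127 CPM in replicate 1 (114 to 140). Its intervals overlapped, and its mean of 137 ± 14.2 CPM (SD, n = 2) gave it rank 188, near the middle of the detected genes. Mir675, known from placenta as a product of H19, had 41 counts and 9.09 CPM in replicate 2 (6.53 to 12.3), and 45 counts and 15 CPM in replicate 1 (10.9 to 20.03), a mean of 12.03 ± 4.15 CPM and rank 303. For Mir675 the intervals of the libraries overlapped and its coefficient of variation, 34.5%, was the largest of the members. Its level was above the 3 counts that a count of 0 allows, which are 0.665 CPM in replicate 2 and 0.998 CPM in replicate 1. Mir505 at 139 ± 20.4 CPM and Mir1264 at 133 ± 57.8 CPM stood next to Mir483. Mir199a-2 at 13 ± 0.474 CPM, which shares 16 stretches of 20 nt with another hairpin, and Mir3057 at 11.6 ± 1.41 CPM stood next to Mir675, in both cases within the spread.

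**Figure D2:**
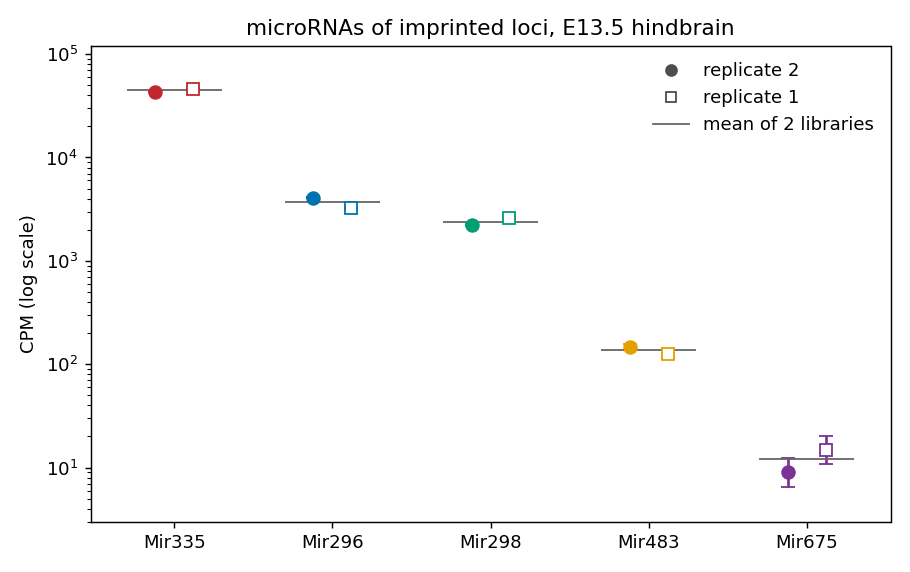
CPM on a log axis of each member in replicate 2 (filled circles) and replicate 1 (open squares), with exact Poisson 95% intervals and the mean of the libraries as a line. The levels fall from 44867 CPM for Mir335 to 12.03 CPM for Mir675 without overlap between members, and only the intervals of Mir675 are wide enough to be seen.

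**Figure D3:**
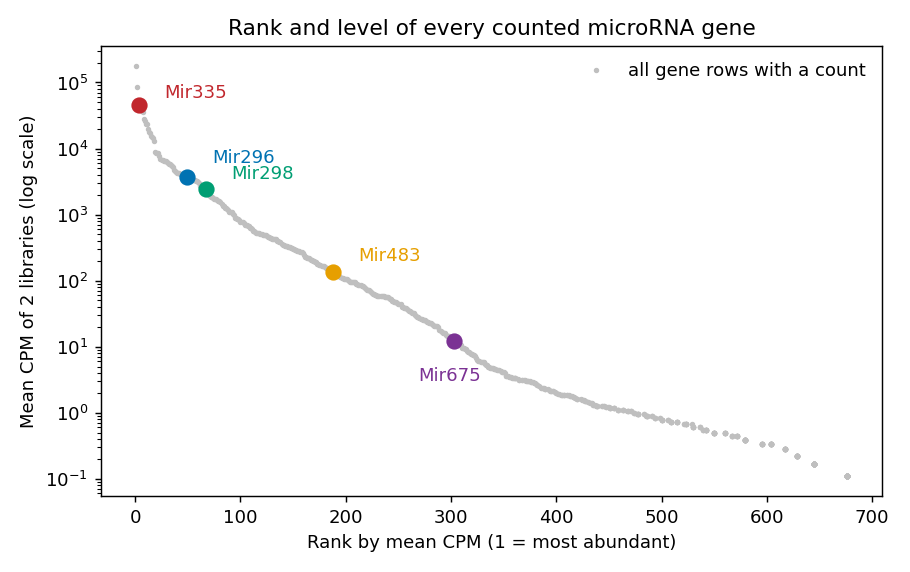
Mean CPM on a log axis against rank for all gene rows with a count (grey), with the 5 members in colour. Mir335 is at rank 4, Mir296 at 49, Mir298 at 67, Mir483 at 188 and Mir675 at 303.

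The order Mir335, Mir296, Mir298, Mir483, Mir675 was found in each library separately. Mir335 exceeded Mir296 10.6-fold in replicate 2 (exact binomial 95% interval 10.4 to 10.7) and 14.2-fold in replicate 1 (13.9 to 14.5). Mir298 exceeded Mir483 15.0-fold in replicate 2 (13.9 to 16.3) and 20.5-fold in replicate 1 (18.5 to 22.8). Mir483 exceeded Mir675 16.1-fold in replicate 2 (11.8 to 22.7) and 8.47-fold in replicate 1 (6.21 to 11.8). The smallest step was from Mir298 to Mir296, which was 1.86-fold higher in replicate 2 (1.82 to 1.91) and 1.26-fold higher in replicate 1 (1.22 to 1.30). The intervals of the libraries did not overlap for any of these steps but that from Mir675 to Mir483, where they met at 11.8. With 1 group of 2 libraries the steps were not tested against replicate error.

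Other microRNAs at imprinted loci gave the setting for these levels. In the Dlk1-Dio3 domain on chromosome 12, which carries a large imprinted cluster of microRNAs expressed in brain, 45 of 59 gene rows were detected. All 59 summed to 70959 CPM in replicate 2, against 77665 CPM in replicate 1, with a mean of 74312 ± 4742 CPM (SD, n = 2). Mir487b led it at 23111 ± 2664 CPM, followed by Mir369 at 7709 ± 586 CPM and Mir127, which lies opposite the Rtl1 gene, at 6490 ± 83.0 CPM. Mir335 alone was 1.94 times as abundant as Mir487b, and no row of the domain was above it.

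In the Sfmbt2 gene, which holds a rodent cluster of repeated hairpins, 10 of 107 rows were detected, and all 10 share stretches of 20 nt with other hairpins, so that their values are uncertain. All 107 rows summed to 5047 ± 284 CPM (SD, n = 2), led by Mir467c at 1719 ± 153 CPM, Mir467e at 1263 ± 21.1 CPM and Mir467d at 1177 ± 174 CPM. Of the other imprinted genes searched, 2 held a further gene row. Mir3099, in an intron of the paternally expressed Usp29, had 332 ± 39.8 CPM, and Gm23134, in an intron of Blcap, had 4.44 ± 1.57 CPM and shares 4 stretches of 20 nt with another hairpin. Over all 173 rows at these loci, the members included, the mean sum was 130798 CPM, of which Mir335 held 34.3%. The median mean CPM of the detected rows was 391 in the Dlk1-Dio3 domain and 190 in Sfmbt2, against 2401 for the 5 members.

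Between the libraries the members differed in both directions. The log2 ratio of replicate 2 over replicate 1, with library sizes scaled by the trimmed mean of M-values (TMM), was 0.29 for Mir296 and 0.18 for Mir483, against -0.14 for Mir335, -0.27 for Mir298 and -0.75 for Mir675. Over all detected genes the median was -0.01, the median absolute value 0.18 and the SD 0.39. A two-sided exact binomial test on the counts, with p-values adjusted by Benjamini-Hochberg across all 356 detected genes, called 45.2% of them, 20.2% as higher and 25% as lower in replicate 2. That balance turned with the scaling, from 72 higher and 89 lower with TMM to 92 higher and 77 lower with library totals. Of the members it called 4, Mir296 as higher (adjusted p = 2.5e-59) and Mir335 (4.9e-157), Mir298 (3.7e-34) and Mir675 (0.0446) as lower. Mir483 did not pass (adjusted p = 0.113). The test takes counting error as the only error and compares these libraries alone, so deep counts pass it at small ratios, and the common biological coefficient of variation from edgeR was 0.141. Without the filter on low counts the call of Mir675 was lost (adjusted p = 0.0851), and with library totals in place of TMM Mir483 was called (0.0481).

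Beyond 1.5-fold lay 9.55% of the detected genes and 1 of the 5 members, Mir675, which was 1.69-fold lower in replicate 2 with the counts of 41 and 45 given above. Of the 50 detected genes nearest to Mir675 in level, 5 had a larger absolute ratio. Among the 50 nearest to Mir296 there were 6, among the 50 nearest to Mir298 there were 9, and among the 50 nearest to Mir483 there were 29. Of the 28 nearest to Mir335, fewer because it is near the top, 13 had a larger ratio. These sets of near genes were chosen after the values were seen.

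**Figure D4:**
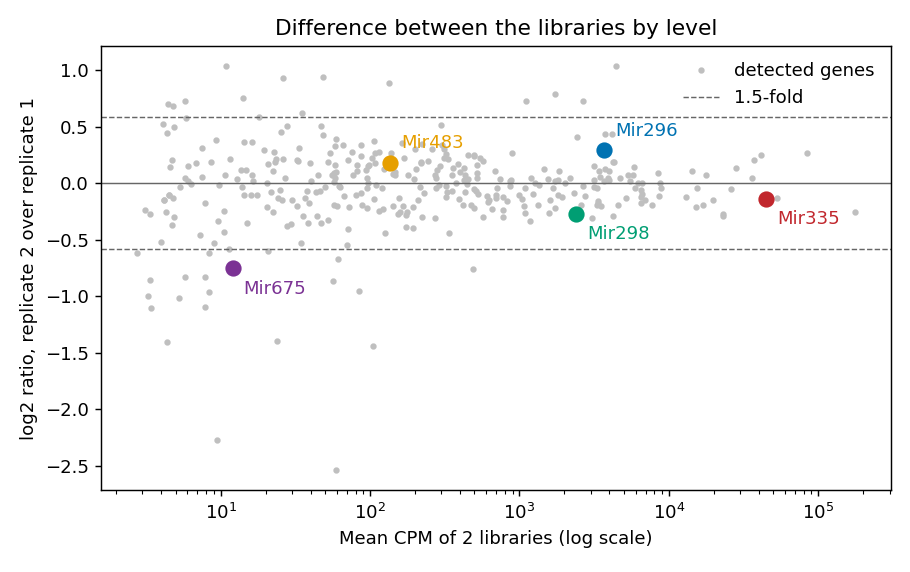
log2 ratio of replicate 2 over replicate 1 against mean CPM (log axis) for the 356 detected genes (grey) and the members (coloured), with dashed lines at 1.5-fold. Mir675 at -0.75 is the only member outside the dashed lines, and Mir296 and Mir298 lie on opposite sides of 0 at similar levels.

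Mir296 and Mir298 moved apart although only 378 nt separate them on 1 strand. The ratio of Mir296 to Mir298 was 1.86 in replicate 2 and 1.26 in replicate 1, a change of 1.48-fold, or 0.56 on the log2 scale. Their sum was 6305 CPM in replicate 2, against 5867 CPM in replicate 1, with a mean of 6086 ± 310 CPM (SD, n = 2). Opposite moves cancel in part in any such sum. As a measure of how neighbours behave, every pair of adjacent detected hairpins on 1 strand with at most 1 kb between them was compared in the same way, a comparison chosen after the values were seen. Among the 60 such pairs, 5 differed by more than Mir296 and Mir298, and the median difference was 0.18. Of the 41 pairs that share no stretch of 20 nt, 4 differed by more. Each of those 5 pairs had a gene with fewer than 1000 counts in a library. The greatest was Mir144 and Mir451a, an erythroid pair, at 1.45 with a lowest count of 61, and the deepest was Mir99a and Mirlet7c-1, at 0.60 with a lowest count of 798, a pair in which at least 1 gene shares a stretch of 20 nt with another hairpin. The limit of 1000 counts, also set after the values were seen, lies just above that pair. Of the 16 pairs in which both genes reached it in both libraries, Mir296 and Mir298 included, none differed by more, and their median was 0.10. The next in that set was Mir99b and Mir125a at 0.31. The cause of the shift was not tested.

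**Figure D5:**
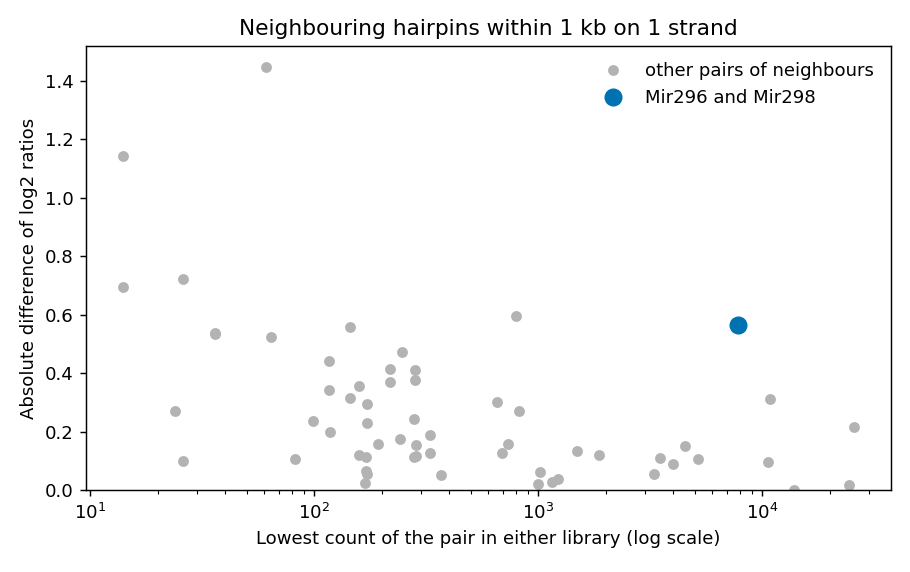
Absolute difference between the log2 ratios (replicate 2 over replicate 1) of 2 neighbouring hairpins, against the lowest count of the pair on a log axis, for 60 pairs. Mir296 and Mir298 (blue) lie at 0.56, above every other pair with at least 1000 counts.

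Markers were looked at because Mest is named for its expression in mesoderm. The Hox cluster genes Mir10a, Mir10b and Mir615, of hindbrain and spinal cord, summed to 135663 CPM in replicate 2 and 111460 CPM in replicate 1. Of the 11 neural genes with a row 7 were detected, and the mean sum was 10884 ± 0.478 CPM (SD, n = 2). That small SD hid opposite moves. Lower in replicate 2 were Mir153 (1451 against 1707 CPM), Mir128-2 (468 against 532) and Mir128-1 (675 against 723). Higher were Mir137 (6281 against 6132), Mir9-3 (619 against 527), Mir138-2 (497 against 408) and Mir138-1 (879 against 846). All neural rows but Mir137 and Mir153 share stretches of 20 nt with another hairpin, among them the undetected Mir9-2, Mir124a-1, Mir124a-2 and Mir124a-3. Mesenchyme genes, 4 of 5 detected and none at 0 in both libraries, summed to 3844 CPM in replicate 2 and 4539 CPM in replicate 1. Most of that was Mir140, a microRNA of cartilage, at 3306 CPM in replicate 2 and 3719 CPM in replicate 1. Mir214 stood at 371 CPM in replicate 2, against 612 CPM in replicate 1, and Mir199b at 152 against 194 CPM. Mir199a-2 stood at 13.3 CPM in replicate 2, against 12.6 CPM in replicate 1, and Mir199a-1 at 1.55 against 1.66 CPM. The Mir199 hairpins share stretches of 20 nt with another hairpin, so their values are uncertain. Muscle genes, 3 of 7 detected, summed to 86.3 CPM in replicate 2 and 149 CPM in replicate 1, with Mir1a-1, Mir133a-1 and Mir133a-2 at 0 in both. Reads that mapped to several places are in no gene row, so these counts of 0 do not show absence. The detected muscle genes went opposite ways: Mir206, of skeletal muscle, reached 64.1 CPM in replicate 2, against 32.6 CPM in replicate 1. Mir208b and Mir208a, of the heart, reached 17.7 and 3.33 CPM in replicate 2, against 100.4 and 15.6 CPM in replicate 1. Liver genes (3 of 4 detected) summed to 185 CPM in replicate 2 and 168 CPM in replicate 1, and blood genes (5 of 5) to 452 CPM in replicate 2 and 486 CPM in replicate 1. Among the blood genes, the sum hid opposite moves. Erythroid Mir451a reached 57.5 CPM in replicate 2, against 152 CPM in replicate 1, a log2 ratio of -1.44 (exact binomial test, adjusted p = 1.4e-38). Its erythroid neighbour Mir144 did not follow, at 20.9 CPM in replicate 2, against 20.3 CPM in replicate 1, a log2 ratio of 0.005. Mir155, of lymphoid and myeloid cells, reached 186 CPM in replicate 2, against 142 CPM in replicate 1, a log2 ratio of 0.35 (exact binomial test, adjusted p = 0.00012). Mir223 (152 against 141 CPM) and Mir150 (35.5 against 30.3 CPM) were also higher in replicate 2 but did not pass this test. Mir126a, of endothelium, had 18917 CPM in replicate 2, against 20540 CPM in replicate 1. The part of these cells in the members' levels was not tested. In tissue RNA, fewer cells that make a microRNA and less of it per cell cannot be told apart.

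The strand column opposite to the annotated one held 1.90% of gene counts in replicate 2 and 1.88% in replicate 1. For the members it held 1 count in replicate 2 and 0 in replicate 1 for Mir335, and 0 in both libraries for Mir675, Mir483, Mir296 and Mir298. A count of 0 allows up to 3 counts. The tables carry no header, so which column is the annotated strand was read from the totals.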

How the data were processed

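The deposited tables hold raw read counts per microRNA gene and strand, 1 table per library, as the authors deposited them. Per the deposited README text, reads were aligned to mm10 and counted on GENCODE M4. Aligner, counter and trimming: not given in the sources used here. The 4 summary rows (unmapped, multimapping, featureless and ambiguous reads) stayed out of library sizes, which were 4508244 counts in replicate 2 and 3006571 in replicate 1. Gene rows held 47.5% of all reads in replicate 2 and 49.0% in replicate 1. The larger strand column was taken as the annotated strand. Names came from GENCODE M21 for 1894 of 1973 rows, and the search for imprinted genes covered a list of imprinted genes and the Dlk1-Dio3 interval. The 2 libraries' counts differed by more than sampling noise (chi-square 38605.6 on 355 degrees of freedom). TMM factors over all rows with a count and the common dispersion came from edgeR 4.0.16, alternative size factors from DESeq2 1.42.0, exact tests from SciPy 1.17.1 and folding from ViennaRNA 2.7.2. With 1 group, edgeR's quasi-likelihood test could not be run. Named genes were the members, the genes next to them in level, the 3 highest of each imprinted set and the 2 intronic genes next to Mir335. Genes outside this rule (Mir99a, Mir10a, Mir144, Mir451a, Mir99b, Mirlet7c-1 and the marker genes named) and those sharing bases 2 to 7 were named after their values were seen. The members and lists were chosen with earlier results of these data known.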

Additional observations from a re-analysis of the deposited data

How the results depend on the processing

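Levels depended on the denominator. Per 1000000 of all reads, unassigned ones included, the levels were 21655 for Mir335, 5.82 for Mir675, 65.9 for Mir483, 1775 for Mir296, 1160 for Mir298 and 24662 for the members together. With totals that left out the most abundant gene they were 54439 CPM for Mir335, 166 for Mir483, 4460 for Mir296 and 2916 for Mir298, while Mir675 moved by less than its SD. Mir335 ranked 4 to 5 when either library was left out, and 6 per nt of hairpin. The Dlk1-Dio3 sum was 82950 CPM with either-strand counts. The log2 ratio of Mir675 (-0.75 without the filter) lost its call, and that of Mir483 (0.21 with library totals) gained one. Without the filter the adjustment runs over more genes; for the other changes the cause was not tested. No log2 ratio of a member changed sign under the 5 alternatives for it, of which TMM over detected genes only was added after seeing the data. That is weak evidence of stability. Without the filter the ratios are the same by construction, and other library sizes move the ratios of all genes by the same amount. Either-strand counting added at most 1 count to a member in a library. Called genes numbered 153 to 170 against 161. Of 78 alternative values 63 stayed within the spread or on their side of the threshold. Mir675 rests on the fewest counts of the members. No paired analysis was possible because there is 1 group.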
